A study of Saccharomyces cerevisiae with 12 samples.

Results

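The genes described here encode the RNA exosome and its cofactors, the H/ACA small nucleolar ribonucleoproteins (snoRNPs), the nucleases RNase P and RNase MRP, and a few nucleases and nucleolar proteins that work beside them in Saccharomyces cerevisiae. Members were chosen by gene symbol, with no measured value in the rule, and all 39 symbols were found among the 5449 genes of S. cerevisiae on the array, each with 1 probe set. They fall into 11 groups by complex or role.

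These machines make and trim stable RNA. H/ACA snoRNPs pair a guide RNA with target RNA and convert chosen uridines to pseudouridine, mostly in ribosomal RNA. The exosome is a barrel of inactive ring subunits with a cap on top and a catalytic nuclease below, and it shortens RNA from its 3′ end, both to form mature ends of ribosomal and small nucleolar RNA and to destroy faulty transcripts. RNase P cuts the 5′ leader from transfer RNA precursors, and its relative RNase MRP, which shares most of its protein subunits, cuts the ribosomal RNA precursor. In budding yeast many of these genes belong to the ribosome biogenesis programme, which is known to follow the supply of glucose.

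The CEN.PK background supplied both strains, the reference strain KOY.PK2-1C83P and the null strain KOY.VW101P, from which the known hexose transporter genes had been deleted so that glucose uptake was removed. Each strain grew in chemostats, continuous cultures with a fixed growth rate (dilution rate 0.1 per h) set by the feed of ethanol as sole limiting carbon source, and samples were taken from the steady state (0 min) and 20 min after glucose was added. Each of the 4 groups had 3 replicate arrays. The series asks which transcriptional responses to glucose need the sugar to enter the cell. The labels give biological replicates but not whether the 0 and 20 min samples of a number came from 1 vessel. Arrays measure RNA of the whole culture, so a change in the share of cells and a change in RNA per cell cannot be told apart.

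The deleted gene HXT2, a hexose transporter gene, stood at 10.82 to 12.65 on the 6 reference arrays and at 2.10 to 2.65 on the 6 null arrays, close to the lowest normalized value of 2.06. Replicate 2 stood apart by time. For the glucose-induced gene HXT1, reference arrays labelled 0 min gave 4.76, 13.18 and 5.25 for replicates 1, 2 and 3, and those labelled 20 min gave 13.20, 4.68 and 13.57. Over genes, which do not count as independent replicates, the 4 replicate 2 arrays correlated at 0.721 to 0.942 with replicates 1 and 3 of their own label and at 0.984 to 0.994 with those of the other time. HXT1 stood at the lowest normalized value of 2.06 on all 6 null arrays, so it cannot check the null time labels. No array was moved to another group. Values of difference and test below therefore come from replicates 1 and 3 of each group (8 arrays), and directions over time hold only if the time labels of those 8 arrays are right. Differences are on the log2 scale of normalized intensity, where 1 unit is a 2-fold difference, with SE from limma fitted over all 5449 genes, and a gene was called when its Benjamini-Hochberg adjusted p was under 0.05. The fit gave each gene 1 spread shared by all 4 groups. The SE of a gene is therefore the same in both strains, and a wide pair of null arrays also widens it in the reference.

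With all 12 arrays under their labels as given, limma called 0 of the 39 members in any of the 5 comparisons. In that fit the called share of all genes was 0% in each strain over time and for the difference between strains, 0.459% between strains at 0 min and 0.642% at 20 min. At an unadjusted p under 0.05 the members counted 0 in the reference over time (0.294% of all genes), 0 in the null strain (0.385%), 0 for the difference between strains (0.312%), 0 between strains at 0 min (5.25%) and 23 between strains at 20 min (39.1%). The median difference over time of the members was 0.76 in the reference and -0.16 in the null strain in that fit, against 2.35 and -0.55 over replicates 1 and 3. A fit of the 12 arrays that gave discordant arrays less weight put 0.0548 to 0.370 on the replicate 2 arrays and called 37 members in the reference and 18 in the null strain. Within replicate 2, the array labelled 20 min was below that labelled 0 min for all 39 members in the reference strain, the opposite of replicates 1 and 3, and the sign was likewise opposite for 92.6% of all genes. The null strain showed the opposite sign for 34 of 39 members and 79.3% of all genes.

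**Figure D1:**
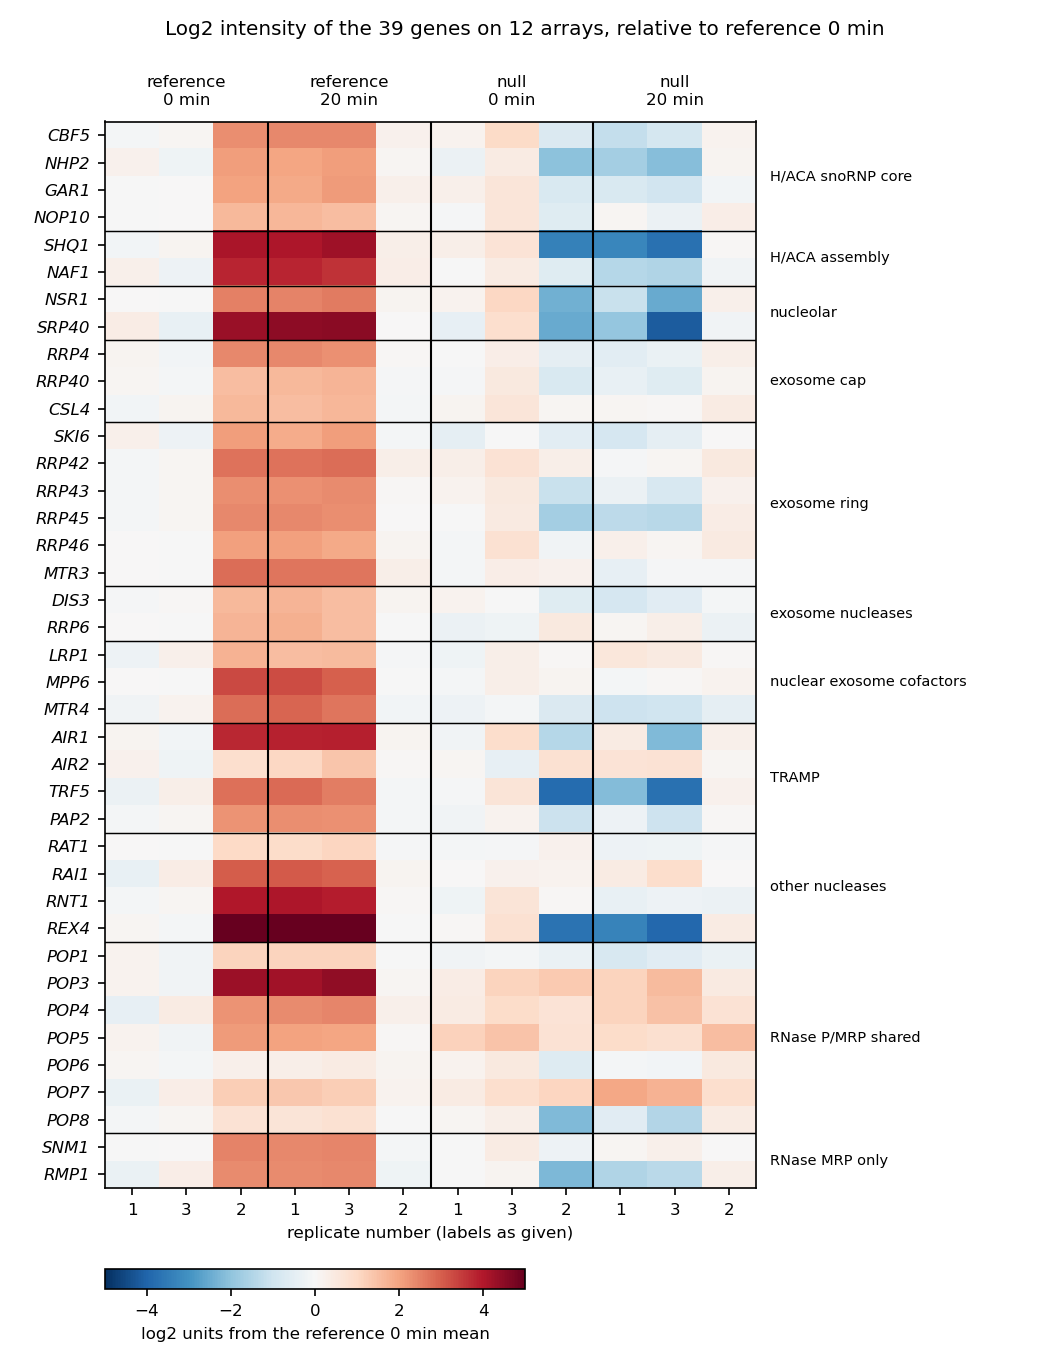
Normalized log2 intensity of the 39 genes (rows, grouped by complex) on the 12 arrays (columns, grouped by labelled strain and time, replicates in the order 1, 3, 2), drawn as the difference in log2 units from the mean of reference 0 min replicates 1 and 3, with colours ending at -5 and 5. Reference 20 min replicates 1 and 3 are above the 0 min level in all 39 rows, and the replicate 2 columns look like the other labelled time.

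Most of the set rose in the reference strain by 20 min after glucose. Of the 39 members 37 rose, none fell and 2, the RNase P/MRP subunit genes POP6 and POP8, did not pass, where 39.3% of all genes rose and 33% fell. The median of the members was 2.35 log2 units, against 0.13 over all genes. With values as deposited 37 members were called higher and POP6 lower, with 1419 of all genes higher and 2491 lower in place of 2140 and 1800. REX4 (5.57), SRP40 (4.49), POP3 (4.33) and SHQ1 (4.13) had the largest rises in this scaling, and RAT1 with 0.99 had the smallest rise that passed. REX4 and SRP40 also led with values as deposited and with arrays centred on their medians. There POP3 (2.97 and 3.46) and SHQ1 (3.02 and 3.52) came after RNT1 (3.22 and 3.71), NAF1 (3.19 and 3.69) and AIR1 (3.10 and 3.60). By complex, the medians were highest with 3.92 for the H/ACA assembly factors, 3.51 for the nucleolar proteins and 3.49 for the other nucleases. Next came 2.79 for the nuclear exosome cofactors, 2.49 for TRAMP, 2.40 for the MRP-only subunits, 2.34 for the exosome ring and 2.04 for the H/ACA core. The lowest were 1.67 for the cap, 1.64 for the exosome nucleases and 1.28 for the 7 members shared by RNase P and MRP. This order of complexes belongs to this scaling. With values as deposited the MRP-only genes SNM1 and RMP1 rose by 2.02 and 1.10, and the H/ACA core genes by 1.72 to 2.38. Each of the 37 calls was kept when any 1 of the 8 arrays was left out.

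No such common rise was measured after glucose in cells without hexose transporters. Of the 39 members 17 fell, 3 rose and 19 did not pass, where 14.7% of all genes fell and 12.9% rose. The median was -0.55, against 0.04 over all genes. The largest falls were log2 differences of -4.03 for REX4, -4.0 for SHQ1, -3.29 for SRP40 and -3.27 for TRF5, while POP7 rose by 1.21, AIR2 by 0.88 and RRP6 by 0.45. Of all genes 10.2% rose in the reference and fell in the null strain, and 16 members did, while 3 members rose in both (5.01% of all genes) and 18 rose in the reference and did not pass in the null strain (24.1%). With values as deposited 25 members were called lower and 1, POP7, higher in the null strain, with 250 of all genes higher and 1183 lower in place of 702 and 799.

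The null calls rested on few arrays. Only 7 of the 20 were kept when each of the 8 arrays was left out in turn, and these were NHP2, GAR1, SHQ1, NAF1, RRP45, REX4 and RMP1, all lower. The count was 9 without null 0 min replicate 3, 10 without null 20 min replicate 3 and 12 without either reference 20 min array, and 7 when the 4 null arrays were fitted alone. On the null arrays at 0 min, 37 of 39 members were higher on replicate 3 than on replicate 1, by a median of 0.43, where 48.4% of all genes were lower on replicate 3. The part of this gap in the null calls was not tested.

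**Figure D2:**
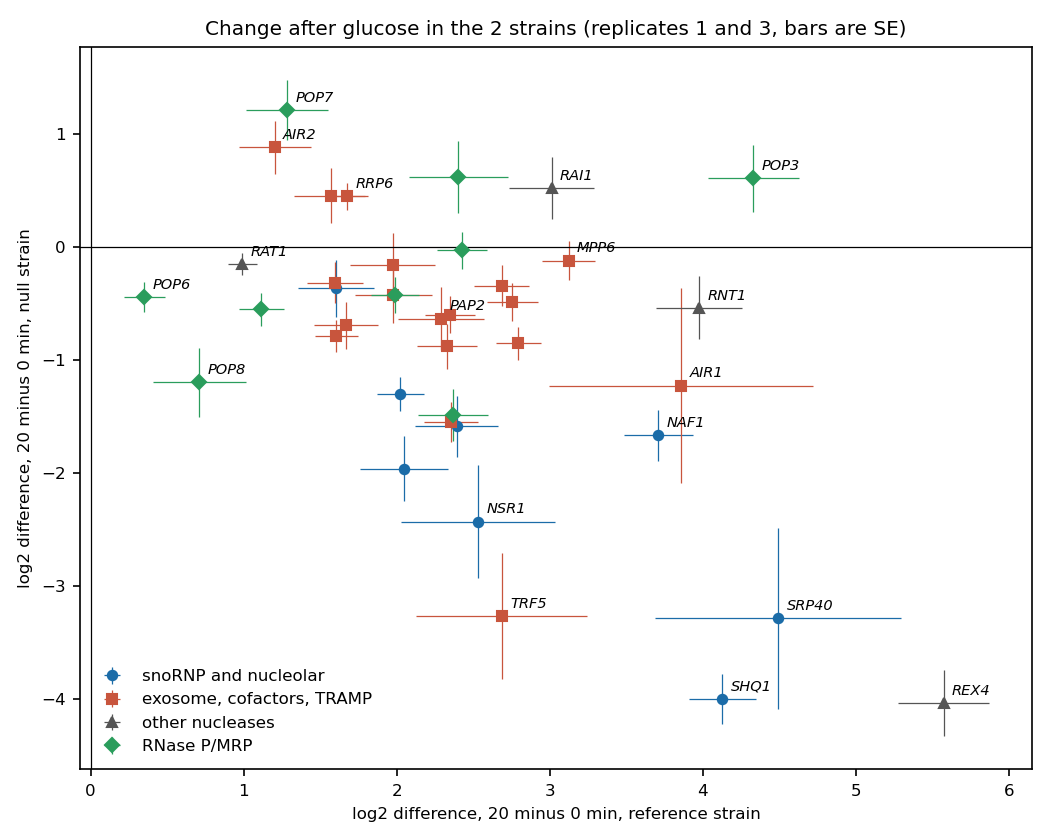
Log2 difference between 20 and 0 min in the reference strain (horizontal axis) and in the null strain (vertical axis) for the 39 genes over replicates 1 and 3, with SE as bars and colour and marker by kind of complex. All 39 genes lie right of 0, from 0.35 for POP6 to 5.57 for REX4, while on the vertical axis 32 lie below 0 and 7 above it.

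The 4 core proteins of the H/ACA snoRNPs all rose in the reference strain. CBF5 encodes the pseudouridine synthase itself, and NHP2, NOP10 and GAR1 the other, small core proteins of the particle. CBF5, with replicates in the order 1, 2, 3 here and below, stood at 11.81, 14.26 and 12.02 on reference arrays labelled 0 min and at 14.31, 12.14 and 14.32 on those labelled 20 min. Null arrays gave 12.08, 11.18 and 12.86 at 0 min, then 10.73, 12.11 and 11.04 at 20 min. Over replicates 1 and 3 the groups did not overlap in either strain, and CBF5 rose by 2.39 (SE 0.27, limma adjusted p = 0.000634) in the reference and fell by 1.59 (SE 0.27, adjusted p = 0.0132) in the null strain, a fall lost without null 20 min replicate 1 (adjusted p = 0.0600). NHP2 rose by 2.05 and fell by 1.96, and GAR1 rose by 2.02 and fell by 1.30. NOP10 had the smallest change, from 13.05 and 13.12 to 14.74 and 14.63 in the reference (1.60, SE 0.25) and from 13.02 and 13.68 to 13.18 and 12.77 in the null strain, where the groups overlapped and the difference of -0.37 (SE 0.25) did not pass.

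The genes for factors that build these particles had larger median differences than the 4 core genes, 3.92 against 2.04 in the reference and -2.83 against -1.44 in the null strain, a description with no test of its own. With values as deposited SHQ1 rose by 3.02 and NAF1 by 3.19, against 1.72 to 2.38 for the core genes. The core genes had reference means of 14.31 to 14.88 at 20 min, where the highest normalized value is 15.84. Whether this limited their rise was not tested. SHQ1 encodes a chaperone that holds newly made Cbf5, and NAF1 a factor that occupies the place of Gar1 until the particle matures. SHQ1 stood at 7.63, 11.83 and 7.88 on reference arrays labelled 0 min and at 11.78, 8.05 and 11.99 on those labelled 20 min. Its null values were 8.06, 4.39 and 8.44 at 0 min and 4.48, 7.81 and 4.02 at 20 min, so that the strains lay close together at 0 min and far apart at 20 min over replicates 1 and 3. SHQ1 rose 17.5-fold in the reference (4.13, SE 0.22, limma adjusted p = 4.39e-05) and fell by 4.0 (SE 0.22, adjusted p = 0.00150) in the null strain. NAF1 went from 9.67 and 9.14 to 13.21 and 13.02 in the reference and from 9.40 and 9.81 to 7.98 and 7.90 in the null strain, a rise of 3.71 and a fall of 1.67 (SE 0.22). SHQ1 and REX4 had log2 intensities under 5 on both null arrays used at 20 min, where the lowest value is 2.06, so the sizes of their falls are uncertain.

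NSR1, the yeast nucleolin-like protein, and SRP40, a relative of the mammalian nucleolar protein Nopp140 that escorts snoRNPs, followed the same order of groups. SRP40 gave 9.10, 13.06 and 8.39 on the reference arrays labelled 0 min and 13.23, 8.78 and 13.26 on those labelled 20 min. Null arrays gave 8.35, 6.22 and 9.60 at 0 min, then 6.80, 8.57 and 4.58 at 20 min, with a gap of over 1 unit between replicates 1 and 3 at each time. Its rise of 4.49 (SE 0.80, limma adjusted p = 0.00385) was kept under every omission, whereas its null difference of -3.29 (SE 0.80, adjusted p = 0.0352) was lost in 7 of 8, with adjusted p up to 0.132. NSR1 went from 12.40 and 12.35 to 14.85 and 14.97 in the reference and from 12.55 and 13.41 to 11.25 and 9.85 in the null strain. The fall of NSR1 (2.43, SE 0.50, adjusted p = 0.0221) was lost without null 0 min replicate 3 and without null 20 min replicate 3 (adjusted p up to 0.0877).

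Every gene of the exosome body rose in the reference strain. All 3 cap genes (RRP4, RRP40 and CSL4, whose products guide RNA into the barrel) and all 6 ring genes (SKI6, RRP42, RRP43, RRP45, RRP46 and MTR3, which resemble the bacterial exonuclease RNase PH but have lost its activity) rose, by 1.60 to 2.76. Without the transporters all 9 lay below 0, from -0.16 to -1.55, and 3 of them passed, where 14.7% of all genes fell. With values as deposited 7 of the 9 passed, where 1183 of the 5449 genes were lower. The median over all genes was 0.04, and -0.13 with values as deposited. The share of all genes below 0 was not counted. RRP42 had the largest rise of the ring, from 10.35 and 10.53 to 13.18 and 13.22 (2.76, SE 0.17, limma adjusted p = 6.90e-05), and stood at 10.73 and 11.16, then 10.37 and 10.55, on the null arrays. RRP46 had the smallest, from 10.67 and 10.64 to 12.72 and 12.54 (1.97, SE 0.28), with 10.55 and 11.41 before and 10.89 and 10.76 after in the null strain, where the groups overlapped (-0.16, SE 0.28). Over replicates 1 and 3 the reference groups did not overlap for these 2 genes, nor for the other ring genes. The share of all genes without overlap was not counted. In this comparison limma called 72.3% of all genes in either direction, and 39.3% rose.

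RRP45 was the ring gene with the largest null fall. Its log2 intensity was 10.32, 12.85 and 10.55 on reference arrays labelled 0 min, 12.83, 10.47 and 12.75 on those labelled 20 min, 10.41, 8.75 and 10.88 on null arrays labelled 0 min and 9.14, 10.81 and 9.04 on those labelled 20 min. It fell by 1.55 (SE 0.18, limma adjusted p = 0.00458), and no left-out array ended that call. RRP43 fell by 0.88 and the cap gene RRP4 by 0.60 (adjusted p = 0.0270 and 0.0468). RRP43 lost its call in 4 omissions and RRP4 in 7, and RRP4 was at -0.95 with values as deposited. RRP4 had the largest rise of the cap, from 10.48 and 10.22 to 12.76 and 12.64 in the reference, and stood at 10.34 and 10.69 and then 9.83 and 10.01 in the null strain. CSL4 had the smallest, from 10.95 and 11.21 to 12.62 and 12.75, and its null values of 11.23 and 11.70, then 11.16 and 11.13, gave -0.32 (SE 0.18), which did not pass.

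The nucleases of the exosome parted in the null strain. DIS3, the catalytic subunit below the barrel, went from 11.71 and 11.82 to 13.45 and 13.30 in the reference and from 11.95 and 11.74 to 10.92 and 11.20 in the null strain, a rise of 1.61 and a fall of 0.79 (SE 0.14, limma adjusted p = 0.0154, lost in 2 omissions). RRP6, the nuclear exonuclease attached to the top of the particle, went from 11.24 and 11.19 to 13.01 and 12.77, and from 10.93 and 11.01 to 11.33 and 11.50. RRP6 rose in both strains, by 1.67 and 0.45 (SE 0.12, adjusted p = 0.000115 and 0.0443). The null rise of RRP6 did not pass under any of the 8 omissions (adjusted p up to 0.173) nor with values as deposited (0.33, adjusted p = 0.150).

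Among the nuclear cofactors MPP6, an RNA-binding protein of the nuclear exosome, rose 8.72-fold in the reference, from 9.38 and 9.31 to 12.60 and 12.34 (3.12, SE 0.17, and 2.59 with values as deposited). Its null values of 9.24 and 9.66 at 0 min and 9.25 and 9.40 at 20 min overlapped, and the difference of -0.12 (SE 0.17) did not pass, though it did with values as deposited (-0.71, adjusted p = 0.0303). MTR4, the RNA helicase that feeds substrates into the exosome, rose by 2.79 and fell by 0.85 (SE 0.15, limma adjusted p = 0.0135), a fall that was lost in 3 omissions and was -1.32 with values as deposited. LRP1, the partner protein of Rrp6, went from 10.74 and 11.28 to 12.55 and 12.60 in the reference (1.57, SE 0.24) and from 10.80 and 11.32 to 11.59 and 11.44 in the null strain, where 0.45 (SE 0.24) did not pass. The null differences of RRP6 and its partner LRP1 thus both lay above 0, while those of DIS3 and MTR4 lay below.

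TRAMP is the nuclear complex that adds a short poly(A) tail to RNA and hands it to the exosome. It joins MTR4 to a poly(A) polymerase, either PAP2 (also called TRF4) or its paralog TRF5, and a zinc-knuckle protein, either AIR1 or its paralog AIR2. All 4 genes rose in the reference strain. AIR1 had log2 intensities of 8.82, 12.43 and 8.52 on reference arrays labelled 0 min and 12.51, 8.82 and 12.54 on those labelled 20 min, while AIR2 had 10.06, 10.69 and 9.66 and then 10.88, 9.92 and 11.25. AIR1 rose 14.5-fold (3.86, SE 0.86, limma adjusted p = 0.00916) and AIR2 2.30-fold (1.20, SE 0.24, adjusted p = 0.00556). The rise of AIR1 was 3.10 with values as deposited and 3.60 with arrays centred on their medians.

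The null strain gave AIR1 and AIR2 differences of opposite sign. AIR1 stood at 8.49, 7.25 and 9.54 at 0 min and 9.10, 8.94 and 6.48 at 20 min, and AIR2 at 9.95, 10.63 and 9.45 and then 10.56, 9.97 and 10.60. The 2 AIR1 arrays used at 20 min lay 2.62 units apart, the largest gap between replicates 1 and 3 of any member in that group. The difference of -1.23 for AIR1 (SE 0.86) did not pass, and it was 0.08 without null 20 min replicate 3. AIR2 rose by 0.88 (SE 0.24, limma adjusted p = 0.0451), and this call was lost in 7 of 8 omissions (adjusted p up to 0.157) and with values as deposited (0.47, adjusted p = 0.136). Its reference rise was 0.61 with values as deposited.

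TRF5 had values of 8.89, 11.94 and 9.45 on reference arrays labelled 0 min and 12.005, 9.07 and 11.72 on those labelled 20 min. On null arrays it had 9.13, 5.34 and 9.82, then 6.99, 9.37 and 5.43. Over replicates 1 and 3 no groups overlapped within a strain. TRF5 rose by 2.69 (SE 0.56, limma adjusted p = 0.00693) and had a null difference of -3.27 (SE 0.56, adjusted p = 0.0132), and the fall was lost without null 0 min replicate 3 (-2.92, adjusted p = 0.0602). PAP2 had 9.21, 11.58 and 9.43, then 11.62, 9.24 and 11.59, in the reference and 9.14, 8.23 and 9.48, then 9.07, 9.37 and 8.28, in the null strain. PAP2 rose by 2.29 (SE 0.28) and its null difference of -0.63 (SE 0.28, adjusted p = 0.151) did not pass, though it did with values as deposited (-1.31, adjusted p = 0.0388) and with arrays centred on their medians (-1.06, adjusted p = 0.0336). The difference between paralogs was not tested.

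**Figure D3:**
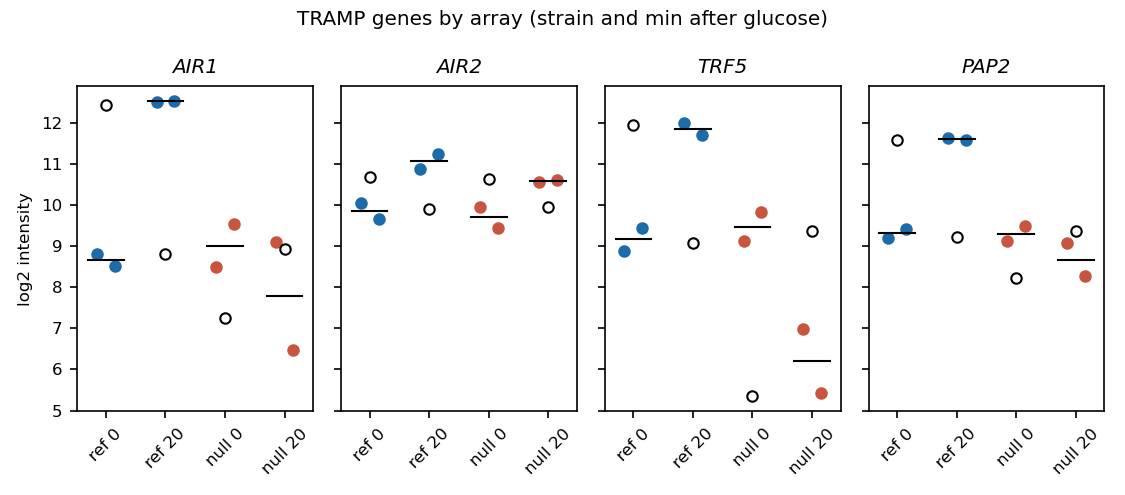
Normalized log2 intensity of the 4 TRAMP genes (vertical axis) by strain and min after glucose (horizontal axis). Filled points are replicate 1 (left) and replicate 3 (right), lines their mean, and open points replicate 2 at its labelled time. TRF5 has a mean below its 0 min level in the null strain at 20 min, AIR2 one above it, and the 2 filled AIR1 points there lie 2.62 units apart.

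Of the other nucleases REX4, a putative 3′ exonuclease of ribosome assembly, had the largest change of all members in each strain. REX4 stood at 7.24, 12.61 and 7.01 on reference arrays labelled 0 min and 12.63, 7.10 and 12.78 on those labelled 20 min. Its null values were 7.18, 3.43 and 7.89, then 3.78, 7.54 and 3.22. REX4 rose 47.6-fold (5.57, SE 0.30, limma adjusted p = 4.39e-05) in the reference and fell by 4.03 (SE 0.30, adjusted p = 0.00198) in the null strain, a fall kept under every omission, with the size uncertain near the lowest value. The size of the reference rise depended on the scaling. It was 4.38 with values as deposited and 4.875 with arrays centred on their medians.

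RNT1, the RNase III that cuts the ribosomal RNA precursor and frees snoRNAs, rose in the reference and did not pass in the null strain. It went from 8.51 and 8.71 to 12.65 and 12.52 (3.98, SE 0.28), and from 8.40 and 9.24 to 8.22 and 8.34 (-0.54, SE 0.28, limma adjusted p = 0.208). That null difference passed with values as deposited (-1.29, adjusted p = 0.0105) and with arrays centred on their medians (-1.05, adjusted p = 0.0121). RAT1, the nuclear exonuclease that works from the 5′ end, had the smallest rise of the group, from 11.87 and 11.81 to 12.74 and 12.92 (0.99, SE 0.10), and stood at 11.76 and 11.79 and then 11.60 and 11.64 in the null strain. Its partner RAI1 went from 8.40 and 9.11 to 11.83 and 11.71 (3.01, SE 0.28). Null arrays gave RAI1 8.78 and 8.96, then 9.15 and 9.63, a difference of 0.52 (SE 0.28) that did not pass and was -0.19 with values as deposited.

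The 7 members that encode subunits shared by RNase P and RNase MRP did not all change alike. Of 7 genes 5 rose in the reference strain, from 1.12 for POP1, the large scaffold subunit, to 4.33 for POP3, and in the null strain POP1 (-0.55, adjusted p = 0.0432, lost in 6 omissions and with centred arrays) and POP8 fell, POP7 rose and 4 did not pass. POP3 went from 7.23 and 6.90 to 11.28 and 11.51 in the reference (20.1-fold, SE 0.30 log2 units, limma adjusted p = 0.000103). The reference rise of POP3 was 2.97 with values as deposited and 3.46 with arrays centred on their medians. Its null values were 7.45 and 8.17, then 8.17 and 8.66, and the difference of 0.61 (SE 0.30) did not pass and was -0.39 with values as deposited and -0.14 with arrays centred on their medians. POP4, a conserved subunit, went from 8.23 and 9.06 to 11.01 and 11.10 in the reference (2.40, SE 0.32, and 1.48 with values as deposited) and from 9.07 and 9.56 to 9.76 and 10.11 in the null strain (0.62, SE 0.32, not passing).

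POP6 and POP7 encode proteins that bind the RNA of both enzymes together as a heterodimer, and their values parted. POP6 had log2 intensities of 9.51, 9.67 and 9.29 on reference arrays labelled 0 min and 9.69, 9.55 and 9.81 on those labelled 20 min, and on null arrays 9.59, 8.74 and 9.87, then 9.31, 9.91 and 9.27. Its difference in the reference was 0.35 (SE 0.14, limma adjusted p = 0.0601), but it fell by 0.63 with values as deposited (adjusted p = 0.0138) and was -0.14 with arrays centred on their medians, so its direction is not determined. Its null difference was -0.44 (SE 0.14, adjusted p = 0.0623), and it passed as lower with values as deposited (-0.98, adjusted p = 0.00774) and with centred arrays (-0.73, adjusted p = 0.0143). POP7 had 9.87, 11.45 and 10.56, then 11.55, 10.37 and 11.45, on reference arrays and 10.63, 11.30 and 11.06, then 12.14, 11.06 and 11.96, on null arrays. POP7 rose by 1.28 (SE 0.27, adjusted p = 0.00697) in the reference and by 1.21 (SE 0.27, adjusted p = 0.0271) in the null strain, the latter lost in 6 omissions with adjusted p up to 0.108, and its reference rise was 0.83 with values as deposited.

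POP8, a small subunit that binds Pop5 in the particle, had 10.46 and 10.69, then 11.22 and 11.35, on the reference arrays of replicates 1 and 3, a difference of 0.71 (SE 0.30, limma adjusted p = 0.0828). On null arrays it went from 10.67 and 10.86 to 10.03 and 9.10 and fell by 1.20 (SE 0.30, adjusted p = 0.0396), a call lost in 7 of 8 omissions. POP5 rose by 1.99 (SE 0.16) in the reference and did not pass in the null strain (-0.43, SE 0.16). The subunits found in RNase MRP but not in RNase P both rose, SNM1 from 9.91 and 9.94 to 12.34 and 12.37 (2.43, SE 0.16) and RMP1 from 7.62 and 8.31 to 10.31 and 10.35 (2.37, SE 0.23). On null arrays SNM1 had 9.90 and 10.36, then 10.03 and 10.17 (-0.03, SE 0.16), while RMP1 went from 7.95 and 8.09 to 6.45 and 6.61 and fell by 1.48 (SE 0.23, adjusted p = 0.0102). The fall of RMP1 was kept under every omission. With values as deposited the differences of RMP1 were 1.10 in the reference and -2.38 in the null strain, and the rise of SNM1 was 2.02.

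**Figure D4:**
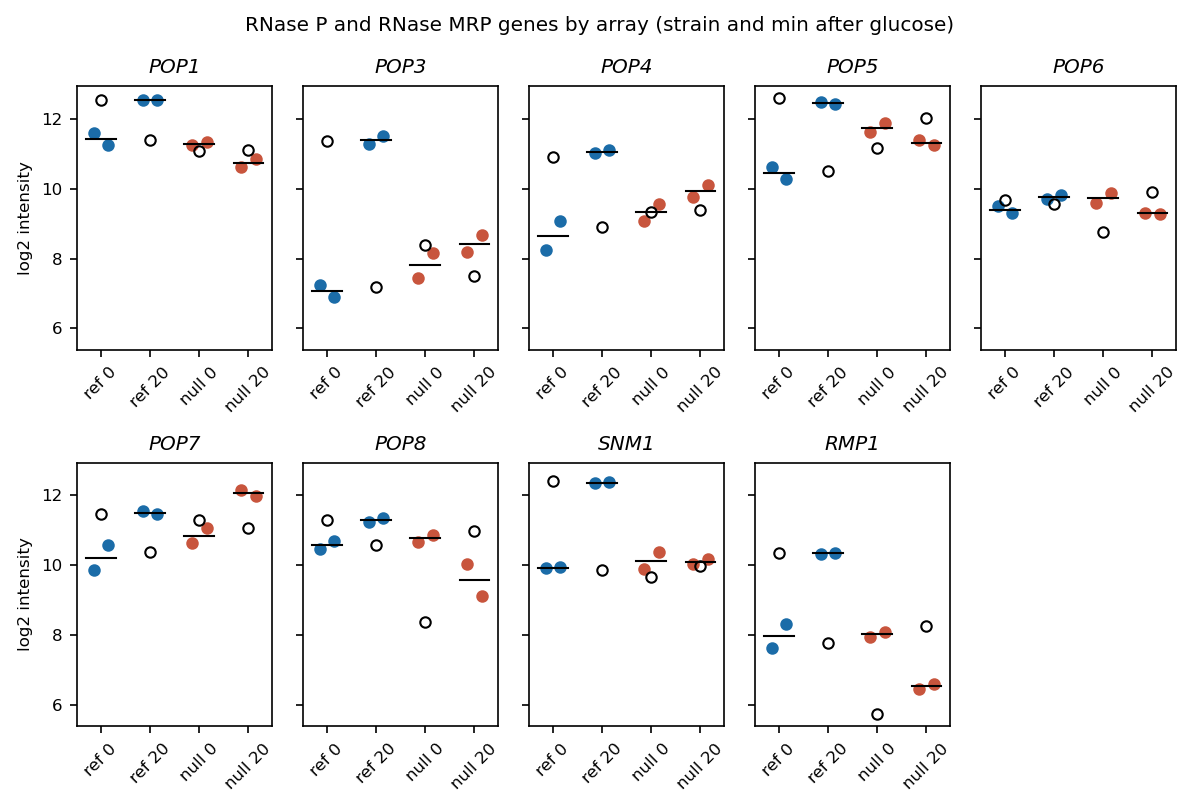
Normalized log2 intensity of the 9 RNase P and RNase MRP genes (vertical axis) by strain and min after glucose (horizontal axis), with filled points for replicates 1 (left) and 3 (right), lines for their mean and open points for replicate 2 at its labelled time. POP7 is higher at 20 min than at 0 min in both strains over the filled points, RMP1 is higher in the reference and lower in the null strain, and POP6 has a reference mean difference of 0.35. Heights of different probe sets are not to be compared.

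The difference between the strains in their response was tested directly. It passed for 37 of the 39 members, all with a lower response in the null strain, against 33.9% of all genes. The median of the members was -2.95, against -0.04 over all genes. REX4 (-9.61), SHQ1 (-8.13) and SRP40 (-7.78) were at the far end. AIR2 and POP7 were the exceptions, and their intervals did not exclude a difference of about 1 unit. For AIR2 it was -0.32 with a 95% interval from -1.16 to 0.51 (limma adjusted p = 0.432), and for POP7 -0.08 with an interval from -1.02 to 0.87 (adjusted p = 0.885), and the sign of POP7 turned to 0.24 with values as deposited. Between 35 and 37 calls were made when an array was left out. LRP1 lost its call in 6 omissions (adjusted p up to 0.0903) and POP4 in 3 (up to 0.0558). POP6 lost its call with values as deposited (-0.35, adjusted p = 0.251) and with arrays centred on their medians (-0.60, adjusted p = 0.0504).

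**Figure D5:**
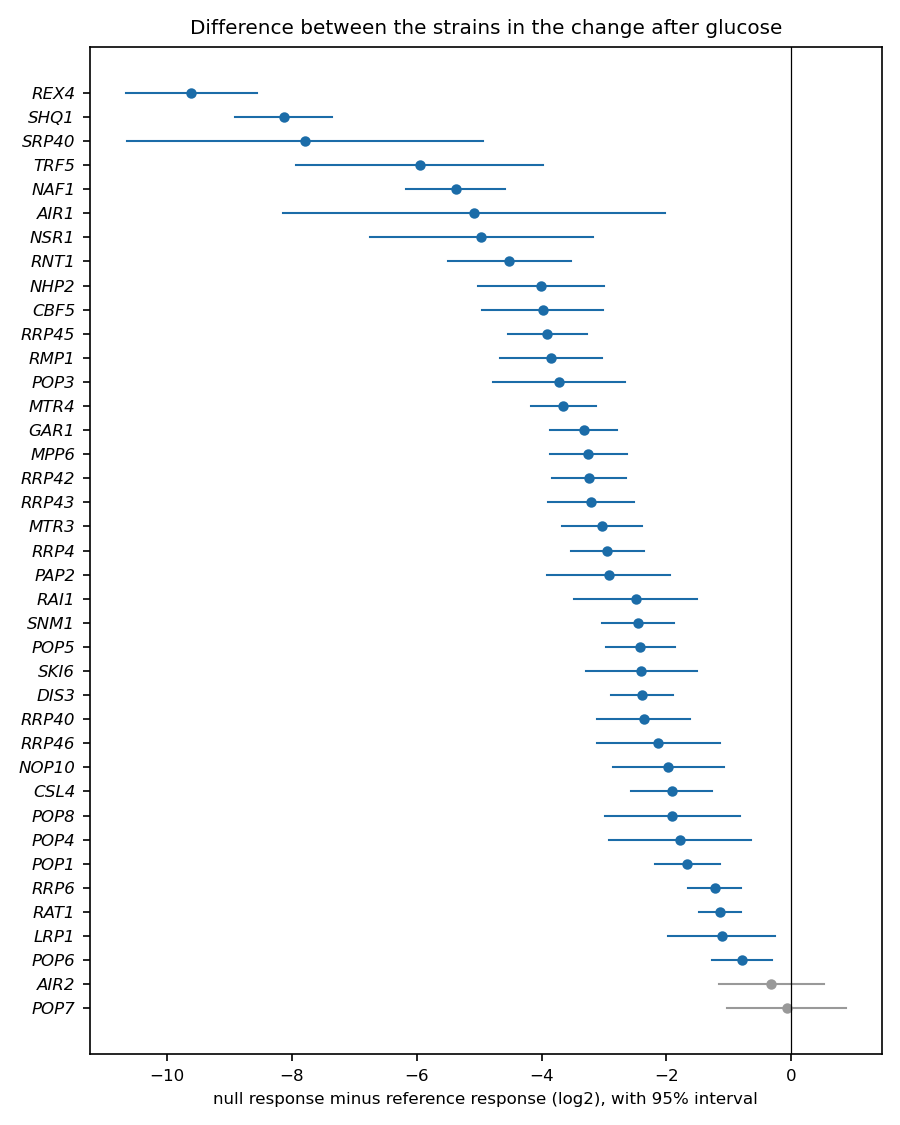
Null response minus reference response in log2 units for the 39 genes, with 95% intervals from limma over replicates 1 and 3, ordered by size. Blue marks the 37 genes with an adjusted p under 0.05 and grey the remaining AIR2 and POP7, whose intervals cross 0.

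Before the pulse few differences between the strains passed. At 0 min POP5 was the only member called, 1.29 higher in the null strain (SE 0.16, limma adjusted p = 0.0293), where 0.881% of all genes were called higher and 0.404% lower. POP5 had 10.63, 12.59 and 10.27 on reference arrays labelled 0 min and 11.61, 11.16 and 11.87 on null arrays so labelled, with no overlap over replicates 1 and 3. This call was lost under each of the 8 omissions (1.12 to 1.47, adjusted p up to 0.172), with values as deposited (1.05, adjusted p = 0.0569) and when only the 0 min arrays were fitted (adjusted p = 0.250). The other 38 members lay between -0.25 and 0.74 and did not pass, and 3 members had an unadjusted p under 0.05, as did 15.8% of all genes.

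At 20 min 37 of 39 members were lower in the null strain, against 38.8% of all genes. The median of the members was -2.78, against -0.04 over all genes. The differences were -9.20 for REX4, -7.63 for SHQ1 and -7.55 for SRP40. The sizes for REX4 and SHQ1 are uncertain, with null values under 5 on both arrays, and the null arrays of SRP40 stood far apart (6.80 and 4.58). POP6, with -0.46 (SE 0.14, limma adjusted p = 0.0232), was the smallest difference to pass. It did not pass with values as deposited (-0.25, adjusted p = 0.228), where 36 members and 1915 of all genes were lower. AIR2 with -0.49 (SE 0.24, adjusted p = 0.112, but -0.55 and 0.0418 with centred arrays) and POP7 with 0.55 (SE 0.27, adjusted p = 0.111) did not pass. This comparison shares its arrays with those over time, so it is not independent of them.

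Other genes that work with these complexes were taken from a list of 32 non-members, all measured, which covers the C/D snoRNP, snoRNP assembly, the remaining RNase P subunits, cytosolic exosome cofactors, other RNA-processing nucleases, RNA-binding and cap-modifying proteins and the Nrd1 termination complex. Of these, 23 rose in the reference strain, 1 fell and 8 were not called (median 1.74), where 39.3% of all genes rose and 33% fell. Without the transporters 1 rose, 11 fell and 20 were not called (median -0.25), where 12.9% of all genes rose and 14.7% fell. The largest reference differences were rises of 4.06 for UTP18 and 3.67 for NOP53, both of which carry a motif that recruits Mtr4 to preribosomes, and 3.06 for NOP56 of the C/D snoRNP. The largest null falls were -5.58 for UTP18, -2.40 for NOP1, the C/D methyltransferase, and -1.71 for NOP58 of the C/D core. UTP18 was under 5 on both null arrays used at 20 min (4.62 and 3.16), so its size is uncertain.

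The other genes named from that list were chosen after their values were seen. XRN1 and NRD1 went the other way. XRN1, the cytoplasmic exonuclease that degrades messenger RNA from the 5′ end, fell by 1.19 in the reference (SE 0.16, limma adjusted p = 0.00117), from 11.89 and 12.16 to 10.77 and 10.89. NRD1, an RNA-binding termination factor that brings in the nuclear exosome, rose by 1.27 in the null strain (SE 0.13, adjusted p = 0.00370), from 11.63 and 11.43 to 12.78 and 12.83, and did not pass in the reference (0.23). Of the 4 genes that serve the cytoplasmic exosome, SKI3 and SKI8 rose in the reference (0.92 and 0.65) and did not pass in the null strain (-0.33 and -0.13), while SKI2 and SKI7 did not pass in the reference (-0.06 and -0.05) and fell in the null strain (-0.94 and -1.13). RPR2, the subunit found in RNase P but not in RNase MRP, rose by 1.75 in the reference and fell by 0.52 in the null strain (SE 0.12). RPP1, the other RNase P subunit of the list, rose by 2.66 in the reference and did not pass in the null strain (0.16). RPR2 was the only gene of the list called at 0 min, 1.07 lower in the null strain (adjusted p = 0.0215). Calls of list genes were not checked by leaving out arrays or under other scalings. The reference call of SKI8 was close to the threshold (limma adjusted p = 0.0489).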

How the data were processed

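RNA of 12 chemostat samples was hybridised to Affymetrix arrays, 1 colour, per the labels' protocols. Values were deposited as log2 intensities, 1 for each probe set on each array. The authors' summarisation and scaling are not given in the sources used here. Of 10928 probe sets, 5498 matched an S. cerevisiae gene by the identifier of the probe table, and the probe set of highest mean was kept for each of 5449 genes. Names follow the RefSeq gene table. Array medians differed by 0.558 log2 units, so the 12 arrays were quantile normalized, which hides any shift common to all genes. Group means were fitted with limma 3.58.1 in R 4.3.3 to replicates 1 and 3 (4 residual degrees of freedom) and again to all 12 arrays as labelled (8), with Benjamini-Hochberg adjustment over all genes. The number of arrays limits the precision, and p-values measure only the spread between these samples. Overlap of groups was read from 2 arrays in each, and the share of all genes without overlap was not counted.

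The members, lists and the leaving out of replicate 2 were chosen with earlier results of these data known. All members may be named. Full values are given for the members of each complex with the largest and smallest reference difference or a direction unlike their complex, and for a few others chosen after their values were seen. The pipeline was tested on simulated data. Alternatives covered the arrays used, normalization, dim genes, probe sets, variance model, replicate block, threshold and leaving out arrays. Promoter and protein sequences were not analysed here. Plots used matplotlib 3.10.9 (Python 3.11.15).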

Additional observations from a re-analysis of the deposited data

Results flagged for a closer look

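The response to glucose differed between the strains, by limma's test of the difference itself over replicates 1 and 3, for 37 of the 39 members. Values are null response minus reference response in log2 units. Among snoRNP genes it was -3.98 for CBF5, -4.01 for NHP2, -3.32 for GAR1, -1.97 for NOP10, -8.13 for SHQ1 and -5.38 for NAF1, and among nucleolar genes -4.96 for NSR1 and -7.78 for SRP40. In the exosome body it was -2.95 for RRP4, -2.36 for RRP40, -1.92 for CSL4, -2.40 for SKI6, -3.24 for RRP42, -3.21 for RRP43, -3.91 for RRP45, -2.13 for RRP46 and -3.03 for MTR3. For its nucleases and cofactors it was -2.39 for DIS3, -1.23 for RRP6, -1.12 for LRP1, -3.25 for MPP6 and -3.65 for MTR4, and in TRAMP -5.09 for AIR1, -5.95 for TRF5 and -2.92 for PAP2. The other nucleases had -1.15 for RAT1, -2.49 for RAI1, -4.52 for RNT1 and -9.61 for REX4. The RNase P and MRP genes had -1.67 for POP1, -3.72 for POP3, -1.79 for POP4, -2.42 for POP5, -0.80 for POP6, -1.91 for POP8, -2.46 for SNM1 and -3.85 for RMP1. Adjusted p-values ran from 5.10e-05 for SHQ1 to 0.0317 for LRP1, and with all 12 arrays as labelled 0 members passed this test (smallest adjusted p = 0.877, and 0 at an unadjusted p under 0.05).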

How the results depend on the processing

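Over replicates 1 and 3 the reference rise and the difference between strains kept their counts of calls within 1.5 times under other scaling, dim-gene, probe-set, variance and threshold settings. Each member has 1 probe set and none was left out as dim, so the probe-set and dim-gene settings act on members only through other genes. With all 12 arrays as labelled, with or without a replicate block, 0 members were called in each of the 5 comparisons. Whether replicate numbers pair the samples is not determined. The check over 12 arrays is void because replicate 2 lies with the other time, and the differences between replicates 1 and 3 at 0 and 20 min correlated at 0.08 in the reference and -0.29 in the null strain. The replicate block over 8 arrays gave 13 calls in the null strain over time, all among the 20, and 0 between strains at 0 min, and the counts of the other 3 comparisons stayed at 37. In the null strain, fitting its 4 arrays alone gave 7 calls (6 of them among the 7 kept under every omission), and a threshold of 0.01 gave 6. The 1 call at 0 min became 0 under values as deposited, under the 2 groups alone and under the threshold of 0.01. Leaving out 1 array gave 37 to 38 calls in the reference, 9 to 18 in the null strain, 35 to 37 for the difference, 0 to 0 at 0 min and 35 to 38 at 20 min.

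Signs turned as follows, the cause was not tested, and all but 1 of these values did not pass. POP6 in the reference turned to -0.63 as deposited (adjusted p = 0.0138) and -0.14 with centred arrays. In the null strain with 12 arrays, and equally with their replicate block, NOP10 turned to 0.0568, RRP46 to 0.101, POP6 to 0.0911, POP8 to 0.0709 and SNM1 to 0.0786, and array weights gave 0.19 for RRP46 and 0.11 for SNM1. There RAI1 turned to -0.19 and POP3 to -0.39 as deposited, and POP3 to -0.14 and RAT1 to 0.0277 with centred arrays. Leaving out 1 array gave null differences from -0.586 to 0.269 for RRP46, -0.332 to 0.0832 for MPP6 and -0.260 to 0.200 for SNM1, each above 0 without null 0 min replicate 3, and -2.54 to 0.0811 for AIR1, above 0 without null 20 min replicate 3. SNM1 was also above 0 (0.0396) without null 20 min replicate 1. For the difference, POP7 turned to 0.23 with 12 arrays (with and without the block), 0.0226 with weights and 0.24 as deposited, and ran from -0.425 to 0.274 over omissions, above 0 without reference 0 min replicate 1, null 0 min replicate 3 or null 20 min replicate 3. The values as deposited shifted the median of all genes in the reference to -0.38 from 0.13 and gave 1419 genes higher and 2491 lower in place of 2140 and 1800, and in the null strain 250 and 1183 in place of 702 and 799, with 1 member higher and 25 lower there.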

Other observations

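MTR3 and NSR1 were the only members that are direct neighbours in the RefSeq gene order of assembly R64, on chromosome VII. Over replicates 1 and 3 they rose alike in the reference strain, by 2.69 (SE 0.18) and 2.53 (SE 0.50). In the null strain NSR1 fell by 2.43 (SE 0.50, limma adjusted p = 0.0221) and MTR3 was at -0.35 (SE 0.18, adjusted p = 0.217), though MTR3 passed as lower with values as deposited (-0.85, adjusted p = 0.00928) and with arrays centred on their medians (-0.60, adjusted p = 0.0384). The difference between the neighbours was not tested.

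Across the 39 members, which are not independent replicates and share the arrays and their normalization, the reference and null differences had Pearson's r = -0.52 and Spearman's rho = -0.37, against -0.23 and -0.24 over all 5449 genes. POP3 and RNT1, with reference rises of 4.33 and 3.98, had null differences of 0.61 and -0.54, while SHQ1 and SRP40, with rises of 4.13 and 4.49, had -4.0 and -3.29.

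The size of the gap between replicates 1 and 3 over the members had a median of 0.23 in the reference at 0 min, 0.12 in the reference at 20 min, 0.43 in the null strain at 0 min and 0.21 in the null strain at 20 min. Over all genes these medians were 0.22, 0.14, 0.24 and 0.18.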
